A study of Mus musculus with 98 samples.

Results

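The ends described here are Cas9-made chromosome ends at which at least 1 strand had been shortened by 21 nt or more. They were chosen from the end structures read in 2 mouse pre-B cell lines cut by Cas9 with the guide RNA named Eb. An end structure is a pair of positions, those at which the 5'-ending and the 3'-ending strand of the broken end stop. A structure was taken when the position of its more recessed strand was 58 or higher, 21 nt beyond position 37, where both strands of the blunt end left by Cas9 stop. Such ends are called far ends, and all others at the same break near ends. In line A 503 of 800 structures were far, and in line B 405 of 684, which made 690 different structures. All 17 tables of the series used here held 13564 structure entries. The measured position chose the members, so the number of far ends and their share of reads are descriptions with no test.

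A double-strand break in a G1 cell is normally rejoined by non-homologous end joining, whose last step is sealing by DNA ligase IV. Without that ligase, ends persist unjoined and are exposed to nucleases, and shortening of the 5'-ending strand, called resection, leaves a 3' single-stranded overhang. Loss of the 3'-ending strand leaves a 5' overhang, and equal loss of both strands leaves a blunt end. Cas9 leaves mostly blunt ends, with both strands cut at or near the same position.

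HCoDES (hairpin capture of DNA end structures) joins the strands of each broken end with a single-stranded DNA ligase, and sequencing across the joint shows where each strand stopped. Both Cas9-cut lines were Abelson kinase-transformed pre-B cells of genotype ligase IV -/-, line A being CJ #1 and line B CJ #7, and the series' design text describes the cells as arrested in G1. Each line was read in 3 libraries that the deposited table pools, so the line is the replicate (n = 2 lines) and no spread between libraries can be given. The labels give no time after Cas9 and no uncut control was among the tables used, and both lines lack ligase IV, so no value here compares cells with and without it. Ends made in the same lines by the RAG recombinase at Jk1 of the immunoglobulin kappa locus and at a recombination substrate, and in line B by a zinc finger nuclease (ZFN), serve as comparisons. Titles give 48 h for the RAG breaks, and those of line B add the unexplained tag shNT. The Cas9 and ZFN libraries belong to sequencing run 8 and the RAG libraries to run 4, per the labels. Every test between breaks other than Cas9 against ZFN therefore also compares runs, and the 2 cannot be told apart.

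Far ends were a large minority of the sequenced Cas9 ends. In line A they held 192445 of 715311 reads, or 26.9% (95% Clopper-Pearson interval 26.8 to 27.0), and in line B 144095 of 625862, or 23.0% (22.9 to 23.1). The mean was 25% ± 2.74 (SD, n = 2 lines). The gap of 3.88 points was wider than the counting intervals. PCR reads that carry no molecular identifier cannot be counted as independent molecules, and these intervals and every exact test here cover counting error only and compare pools of reads. The unresected blunt end at the cut held 19.5% of reads in line A and 21.7% in line B, less than all far ends together.

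The threshold did not lie in a gap. Just outside it, structures with 20 nt of loss held 0.722% of reads in line A and 0.95% in line B. Just inside it, structures with 21 nt of loss held 0.801% and 0.597%. The leading structure outside had 4 nt of 3' overhang in line A (0.182% of reads) and 5 nt in line B (0.321%). The leading structure inside was blunt in line A (0.249%), and in line B it had a 2-nt 3' overhang (0.215%).

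Far reads lay mostly at low and at high losses, with a thinly filled middle. The median loss of the more recessed strand was 112 nt in line A (quartiles 39 and 147) and 87 nt in line B (33 and 141). Losses of 21 to 40 nt held 27.5% of far reads in line A and 33.6% in line B. That range was no peak of its own. In it no single loss held more than 0.801% of the table in line A or 0.957% in line B. At 15 nt, short of the threshold, the shares of the table were 2.41% and 3.56%. From 41 to 120 nt, a range 4 times as wide as 21 to 40 nt, the shares of far reads were 23.9% and 25.4%. From 121 nt on they were 48.6% and 41% of far reads, of which losses of 141 to 160 nt alone held 27.3% and 23.8%. Beyond that the lines parted, with 7.79% of line A's far reads and 1.72% of line B's at 161 nt or more. The longest loss was 184 nt in both lines. Ends lost beyond the amplified stretch are not measured, and how well the assay recovers long against short losses is not given in the sources used here.

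**Figure D1:**
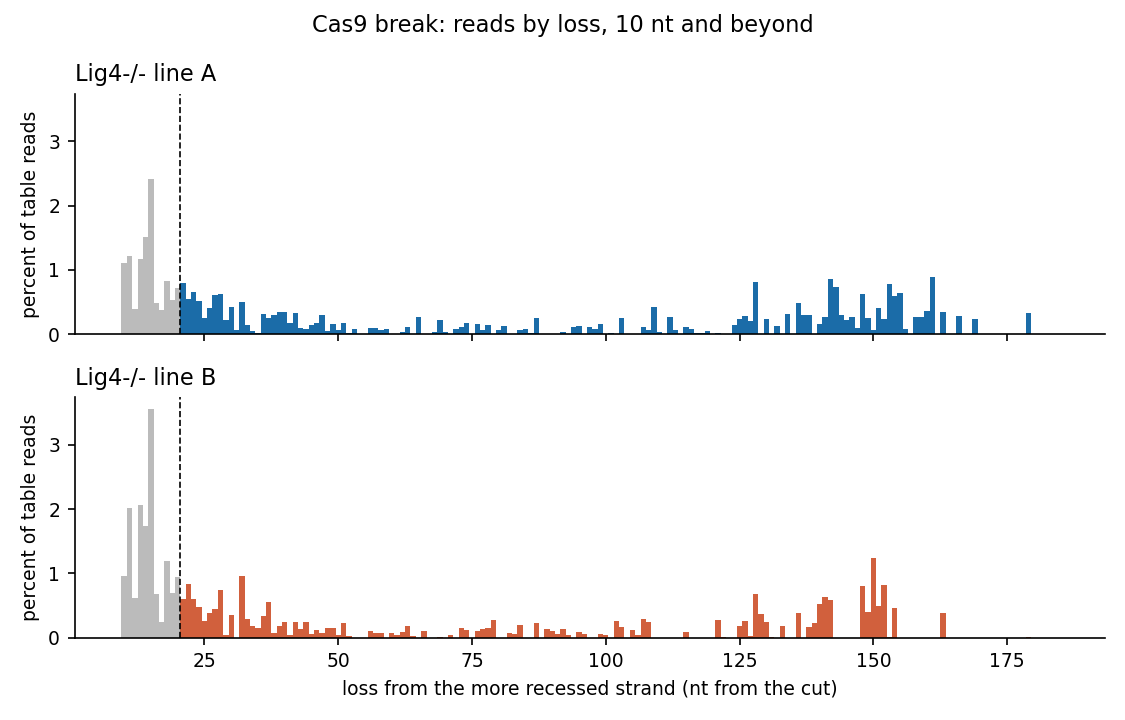
Percent of each table's reads (vertical axis) by loss of the more recessed strand in nt (horizontal axis) in line A (top) and line B (bottom), from 10 nt on, with the threshold between 20 and 21 nt as a dashed line and near ends in grey. In both lines the bars from 21 to about 40 nt continue from the near ends, without a peak of their own. Few reads lie from 41 to 120 nt and a cluster lies from 121 nt, and line A alone has sizeable bars past 163 nt.

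At most far ends both strands had been shortened past the threshold. Such ends held 88.0% of far reads in line A and 80.6% in line B. Only the 5'-ending strand was past it in 10.1% and 19%. Only the 3'-ending strand was past it in 1.95% and 0.430%. In 14 far structures of line A and 9 of line B the other strand stopped on the opposite side of position 37, and these held 1.04% and 1.09% of far reads. The median loss of the 5'-ending strand was 109 nt in line A and 84 nt in line B, against 97 and 69 nt for the 3'-ending strand.

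**Figure D2:**
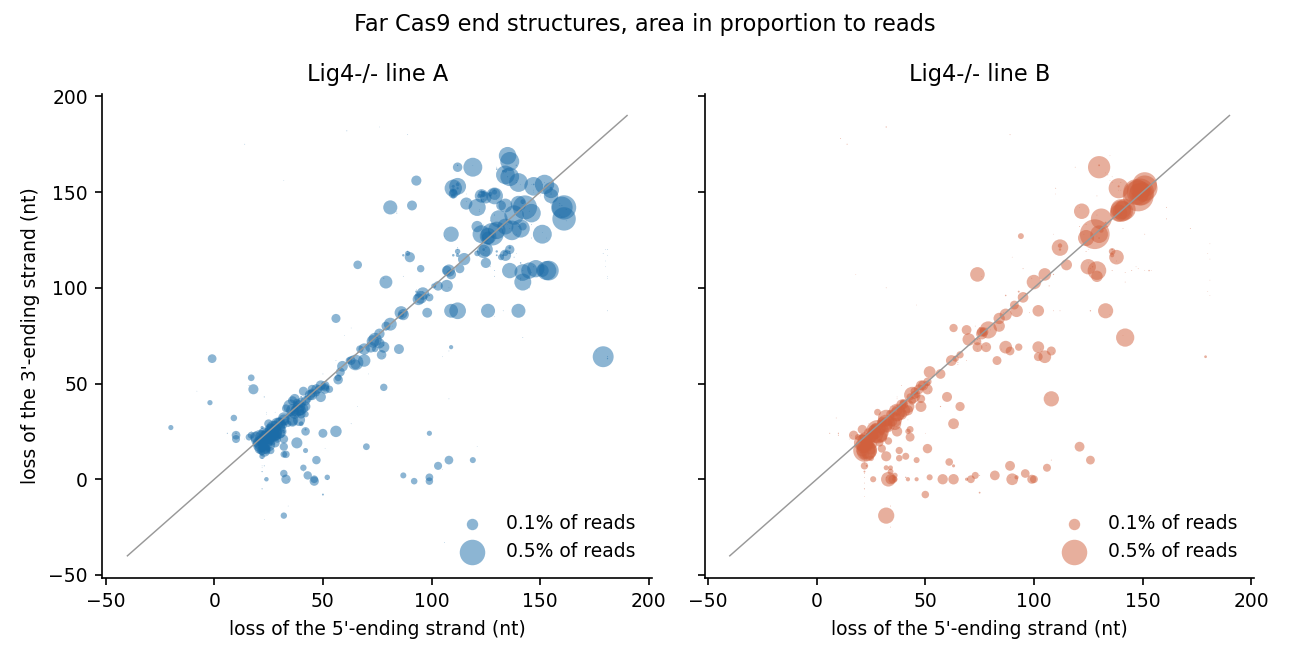
Each circle is a far structure, placed by the loss of its 5'-ending strand (horizontal, nt) and its 3'-ending strand (vertical, nt), with area in proportion to its percent of the line's reads; circles on the diagonal are blunt, below it 3' overhangs, above it 5' overhangs. From 21 to 120 nt both lines lie mostly along the diagonal with a row of 3' overhangs near a 3'-strand loss of 0, and beyond 120 nt line A has many large circles away from the diagonal, while line B's largest lie near it, with others such as the 33-nt 5' overhang off it.

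No single structure dominated the far ends, though line B was the more concentrated. The 10 most abundant structures held 13.3% of far reads in line A and 21.7% in line B, and the top 100 held 67.6% and 78.9%. The median far structure had 145 reads in line A and 91 in line B. Many were rare: 196 structures of line A (39.0% of its list) and 171 of line B (42.2%) had fewer than 10 reads, and together these held 0.335% and 0.369% of far reads. The fewest reads listed for any structure was 2.

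In line A, 4 of the 5 most abundant far structures were 3' overhangs that ended 136 or 142 nt back on the 3'-ending strand. It was led by a 19-nt 3' overhang, at which the 5'-ending strand was 161 nt and the 3'-ending strand 142 nt short, at 0.453% of the table (3237 reads). Line B held 4 reads of it. Next came a 1-nt 3' overhang (143 and 142 nt lost) at 0.444% in line A, with 3 reads in line B, and a 25-nt 3' overhang (161 and 136 nt) at 0.422%, with 4 reads in line B. The fifth was an 18-nt 3' overhang (160 and 142 nt) at 0.353% in line A, which line B did not list. The fourth, a blunt end with 128 nt lost from both strands, was abundant in both lines, at 0.391% in line A and 0.681% in line B.

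Line B's most abundant far structures were blunt ends and short 5' overhangs. A blunt end with 148 nt lost came first at 0.732% (4582 reads). Line A did not list it, and line B's share was 1746-fold a floor set at 3 reads of line A's table, a ratio that is not a lower bound. The blunt end at 128 nt was second. Then followed a 1-nt 5' overhang (149 nt lost from the 5'-ending and 150 nt from the 3'-ending strand) at 0.565%, another 1-nt 5' overhang (151 and 152 nt) at 0.504%, and a 3-nt 5' overhang (147 and 150 nt) at 0.502%. In line A these had 4, 2 and 2 reads. Except for the blunt end at 128 nt, then, each line's 5 leading far ends were at 4 reads or fewer in the other line.

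The 3' overhang was the most frequent form of far end in both lines. 3' overhangs of any length held 58% of far reads in line A (57.8 to 58.2) and 57% in line B (56.8 to 57.3), 5' overhangs 29.1% and 24.8%, and blunt ends 12.9% and 18.1%. The small gap of 0.966 points in 3' overhangs passed Fisher's exact test (adjusted p = 2.23e-08, two-sided, Benjamini-Hochberg over 10 classes). Its sign turned to 1.63 points higher in line B without each line's most abundant far structure. It also turned, to 7.63 points, with each structure counted once.

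The overhangs differed between lines mainly in the 5' classes. 5' overhangs of 10 nt or more held 17.6% of far reads in line A (17.4 to 17.8) and 5.02% in line B (4.90 to 5.13), in 105 and 41 structures. 5' overhangs of 1 to 4 nt were the other way round, at 6.96% and 16.3%. Blunt ends were 5.25 points higher in line B. For these 3 classes the p of Fisher's exact test was under 1e-300. The gap in blunt ends was 2.34 points without each line's most abundant far structure, and only 1.68 with each structure counted once. Median 5' overhang length was 19 nt in line A and 3 nt in line B, and the longest were 161 and 167 nt.

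The 3' overhangs were closer between lines. Long ones of 20 nt or more held 16.9% of far reads in line A (16.7 to 17.0) and 16.7% in line B (16.5 to 16.9). That gap of 0.127 points did not pass Fisher's exact test (adjusted p = 0.33). Line A's leading one, of 25 nt, had also lost 136 nt from the 3'-ending strand, so the class is not limited to loss from 1 strand. The near-equal totals came from different ranges of loss. At 121 nt or more these long overhangs held 23.8% of line A's reads in that range and 11.8% of line B's. At 21 to 40 nt they held 2.72% and 10.3%, and at 41 to 120 nt line B was again the higher. With 10 reads or more in both lines, 7 such structures recurred, of 42 in line A and 56 in line B. Short 3' overhangs of 1 to 4 nt were higher in line B, 24.7% against 19.9% (adjusted p = 4.97e-238 by Fisher's exact test). Those of 5 to 9 nt were higher in line A, 13.6% against 11% (adjusted p = 2.17e-117 by the same exact test), as were those of 10 to 19 nt, 7.55% against 4.59% (adjusted p = 1.33e-277 by the same exact test). Median 3' overhang length was 7 nt in line A and 6 nt in line B, and the longest were 139 and 116 nt. With 2 lines, none of these gaps has a spread of its own to be set against.

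Which overhang an end carried varied with how far it had been shortened, over 3 broad ranges of loss. At losses of 21 to 40 nt, 3' overhangs held 70.0% of the reads in line A and 86.8% in line B, and 5' overhangs 11.2% and 2.97%. At 41 to 120 nt the 3' share was 62.0% and 66.5%, and the 5' share 22.1% and 17.4%. At 121 nt and more, 3' overhangs held 49.2% and 26.8% of reads, and 5' overhangs 42.7% and 47.4%. The order of the 3 ranges was the same in both lines, but bins of 20 nt did not follow it step by step. In line A the 3' share was 81.7% at 61 to 80 nt, 39.9% at 81 to 100 nt and 58.1% at 161 nt or more. In line B it was 60.6% at 61 to 80 nt and 80.7% at 81 to 100 nt. These shares are described with no test.

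Within the far cluster the lines used different forms. Among ends with 141 to 160 nt of loss, line A's reads were in 5' overhangs of 10 nt or more (38.5%) and 3' overhangs of 20 nt or more (25.4%), with 0.00953% blunt. In line B 5' overhangs of 1 to 4 nt held 50.9% and blunt ends 21.6%, and 5' overhangs of 10 nt or more 5.79%. Nearer the cut, at 21 to 40 nt, the forms were more alike. There 3' overhangs of 1 to 4 nt led in both lines (37% and 42.8%), followed by those of 5 to 9 nt (25.9% and 29.0%). Blunt ends held 18.8% and 10.2%. 3' overhangs of 20 nt or more in that range held 2.72% in line A and 10.3% in line B.

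Of the 690 far structures, 218 were listed in both lines. These were 43.3% of line A's list and held 67.9% of its far reads, and 53.8% of line B's list with 64.7% of its far reads. Being listed in both did not mean being abundant in both. Over the 218 structures the shares of the 2 lines had a Spearman rho of -0.32 and a Pearson r of -0.31 on log10 shares, a description over structures that share the same 2 pools of reads. The median ratio between the lines, larger over smaller, was 91.7, and 129 structures differed by more than 10-fold against 44 within 2-fold.

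That pattern came from structures at a handful of reads in 1 line. Of the 218, 125 had fewer than 10 reads in only 1 line, with a median of 721 reads in the line with more and 3 in the line with fewer. Line A was the higher in 78 of them and line B in 47. Another 16 had fewer than 10 reads in both lines. Of line A's 58 structures with 1000 reads or more, 79.3% were listed in line B, and of its 39 structures with 10 to 99 reads, 20.5%. For 34 of those 58 line B held 2 to 9 reads, for 12 it held 10 or more, and 12 were not listed. In line B, of 43 structures with 1000 reads or more, 16 were at 2 to 9 reads in line A, 16 at 10 or more and 11 not listed. Both lines' libraries belong to the same sequencing run. Whether reads were assigned to the wrong library of that run was not tested, and the 218 structures and their shares of reads include these low counts.

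**Figure D3:**
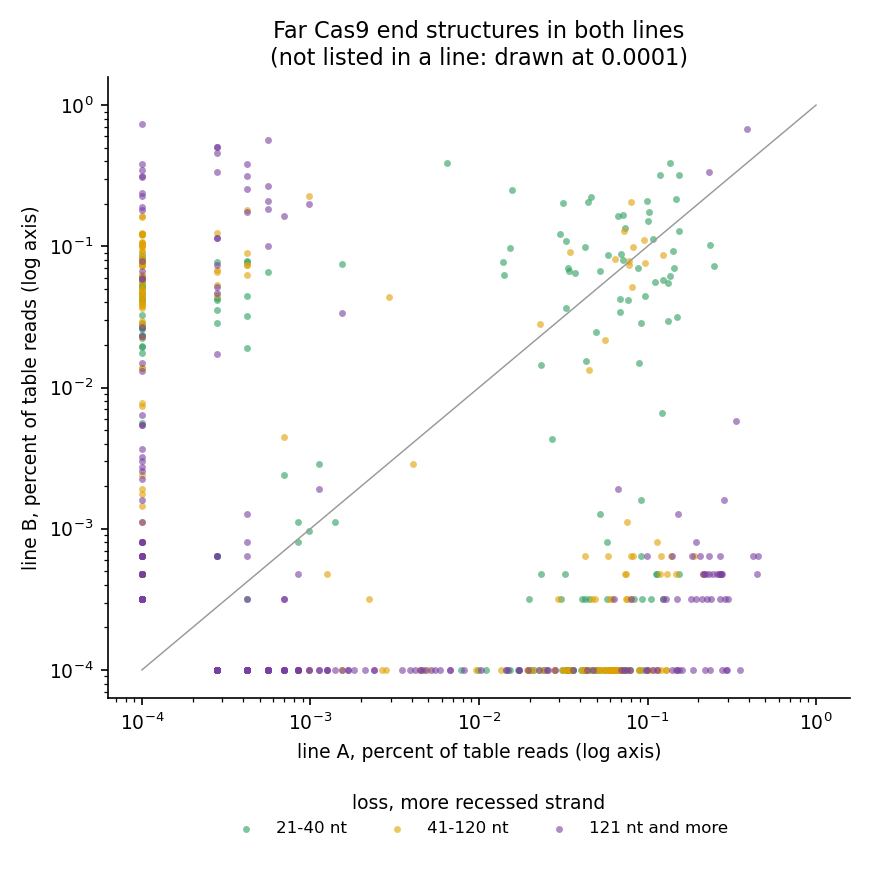
Share of each far structure in line A (horizontal) and line B (vertical) as percent of the table's reads on log axes, coloured by loss of the more recessed strand; structures not listed in a line sit on the left or lower edge and the diagonal marks equal shares. One cloud of mostly 21 to 40 nt structures lies around the diagonal, and 2 bands lie at 2 to 9 reads in 1 line, where most structures of 121 nt and more that both lines list fall.

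With a minimum of 10 reads in each line, 77 structures recurred. They were 25.1% of line A's 307 such structures, with 25.5% of their reads, and 32.9% of line B's 234, with 35.7% of their reads. Of the 77, 34 lay within 2-fold and 10 differed by more than 10-fold, the median ratio was 2.16, and the Spearman rho was 0.14. Near ends recurred more: 160 near structures had 10 reads or more in both lines, 70.8% of line A's and 85.6% of line B's, holding 95.7% and 98.3% of the reads, with a Spearman rho of 0.79. Near ends have fewer possible pairs of positions than far ends, so a shared structure is likelier among them, and no allowance was made for that. The near and far counts are set side by side with no test.

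Recurrence at 10 reads or more was lower in each broader range farther from the cut. Ranges farther out also hold more possible pairs of positions, and the part this plays was not tested. From 21 to 40 nt, 55 structures recurred, 49.1% of line A's and 57.9% of line B's. From 41 to 120 nt the number was 16 (15.8% and 19%), and from 121 nt on it was 6 (6.38% and 10.9%). Bins of 20 nt did not decline steadily. No structure of 101 to 120 nt recurred, of 23 in line A and 12 in line B, whereas 4 of 121 to 140 nt did (13.8% and 17.4%). By form, 27 of the 77 were 3' overhangs of 1 to 4 nt (39.7% of line A's and 47.4% of line B's). Another 20 were 3' overhangs of 5 to 9 nt (41.7% and 69.0%) and 15 were blunt (48.4% and 53.6%). Only 4 carried a 5' overhang, of 92 such structures in line A and 43 in line B (4.35% and 9.30%). Not 1 of them was of 10 nt or more, of 57 in line A and 9 in line B. Of all listed 5' overhangs of 10 nt or more, 76 of 105 in line A and 28 of 41 in line B had lost 121 nt or more. Form and distance therefore cannot be told apart here.

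**Figure D4:**
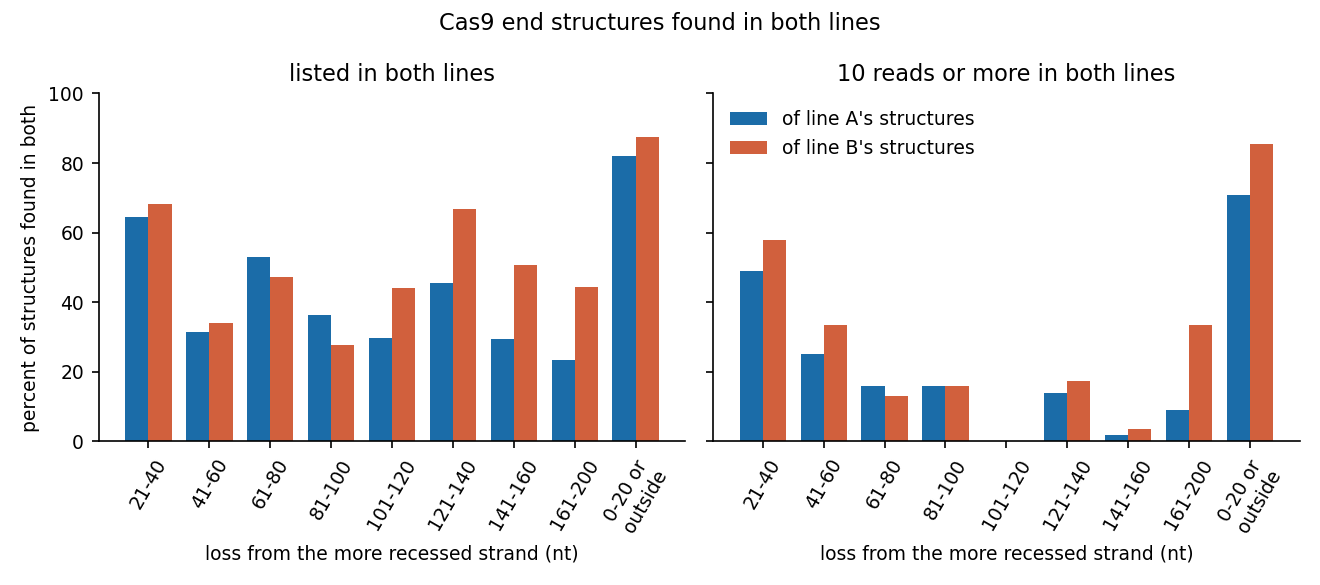
Percent of each line's Cas9 end structures found in both lines, by loss of the more recessed strand in nt, for all listed structures (left) and for those with 10 reads or more in both lines (right), with near ends as the last pair of bars. With the read minimum the bars go from 49.1% and 57.9% at 21 to 40 nt to 1.85% and 3.45% at 141 to 160 nt, against 70.8% and 85.6% for near ends; the pair at 161 to 200 nt rests on 11 structures of line A and 3 of line B.

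The far structures highest in both lines were, apart from a pair near 130 nt, short 3' overhangs just past the threshold. The blunt end at 128 nt led, with a share 1.74 times as high in line B as in line A. Second was a 5-nt 5' overhang (131 and 136 nt lost), at 0.231% in line A and 0.333% in line B. The other 8 had 21 to 28 nt of loss and 3' overhangs of 2 to 8 nt. A 4-nt 3' overhang (28 and 24 nt lost) held 0.155% and 0.319%, and a 3-nt one (28 and 25 nt) 0.137% and 0.392%. At 27 nt, a 4-nt 3' overhang (27 and 23 nt) held 0.102% and 0.176%, and a 3-nt one (27 and 24 nt) 0.236% and 0.102%. At 23 nt, an 8-nt 3' overhang (23 and 15 nt) held 0.119% and 0.321%, and a 5-nt one (23 and 18 nt) 0.108% and 0.112%. At 21 nt, a 2-nt 3' overhang (21 and 19 nt) held 0.148% and 0.215%, and a 3-nt one (21 and 18 nt) 0.154% and 0.129%. The ratio between lines was 2.86 at most among these 10, and line B was the higher in 8 of them. These 10 were picked for the highest smaller share of the 2 lines, so a low ratio is partly built in.

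The leading member of some overhang classes belonged to 1 line. Among 5' overhangs of 10 nt or more, the structure with the highest mean share was a 33-nt overhang (130 and 163 nt lost) at 0.381% of line B's reads, and line A held 3 reads of it. The leading 5' overhang of 1 to 4 nt was line B's 1-nt end at 149 and 150 nt. Line A's 19-nt and 25-nt 3' overhangs led their classes of 10 to 19 nt and of 20 nt or more. Only the blunt, the shorter 3' and the 5- to 9-nt 5' classes were led by a structure abundant in both lines.

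Structures at 0.1% of the table or more numbered 91 in line A and 65 in line B, and held 64.4% and 66.1% of far reads. Of line A's 91, 22 were not listed in line B, 48 were listed there at a share more than 10-fold lower, and 10 lay within 2-fold. Of line B's 65, 20 were not listed in line A, 22 were more than 10-fold lower and 10 lay within 2-fold. Each of the unlisted structures had a share of 0.1% or more against a floor (3 reads) of 0.000479% of line B's reads or 0.000419% of line A's.

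Taken 1 strand at a time, both lines used most of the same positions at 21 nt or more from the cut, at differing abundance. Strands of far ends that stopped nearer the cut are left out of these position counts. The 5'-ending strand stopped at 128 such positions in line A and 117 in line B, of which 111 were shared. The 3'-ending strand stopped at 133 and 120, of which 114 were shared. In all, 134 and 139 such positions were seen in either line, numbers that themselves depend on how many were shared. No loss went beyond 184 nt, so lists of this length had to share many positions, and the excess was not tested. A shared position may hold a handful of reads in 1 line. Over the shared positions the Spearman rho of the 2 lines' reads was 0.19 for the 5'-ending and 0.34 for the 3'-ending strand, a description over positions of the same 2 pools. Of the 10 most used of these positions, 3 were the same in both lines on the 5'-ending strand and 5 on the 3'-ending strand. The 3'-ending strand stopped 128 nt from the cut in 4.06% of far reads in line A and 4.00% in line B. It stopped at 142 nt in 6.05% in line A and 0.00625% in line B, and at 150 nt in 0.275% and 5.00%. The 5'-ending strand stopped at 161 nt in 3.25% in line A and 0.00555% in line B, and at 149 nt in 0.00416% and 4.46%. Near the threshold some 5'-strand positions were close, with 2.79% and 3.00% at 21 nt, and others were not, with 1.61% and 3.40% at 22 nt and 1.73% and 4.16% at 32 nt.

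Among far Cas9 ends blunt ends were lower and 3' overhangs higher than among near ends. The split into far and near rests on the strand positions that also give the overhang, so these differences are partly built in and are described with no weight on a test. The unresected blunt end at the cut is near by definition, and an end within 20 nt of the cut can hardly carry a longer overhang. Blunt ends held 12.9% of far against 50.9% of near reads in line A, and 18.1% against 46.5% in line B, a mean difference of -33.2 points. All 3' overhangs were 36.4 points higher in line A and 18.9 in line B. Those of 5 to 9 nt were higher by 6.15 points on average. 3' overhangs of 20 nt or more held 16.8% of far reads on average against 0.156% of near reads, and 5' overhangs of 10 nt or more 11.3% against 0.247%. All 5' overhangs together were higher by 1.65 points in line A and 9.48 in line B, while the near values of the 2 lines lay 12.1 points apart. With each structure counted once, the differences were -0.373 points for blunt ends, -0.0332 for 3' and 0.406 for 5' overhangs.

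Against far ends at Jk1, far Cas9 ends carried fewer 5' overhangs and more blunt ends. The loss was not matched between breaks. Its median in lines A and B was 87 and 132 nt at Jk1, and 112 and 87 nt at Cas9. 5' overhangs held 29.1% of far Cas9 and 44.0% of far Jk1 reads in line A, and 24.8% and 39.9% in line B, a mean difference of -15.0 points. Blunt ends were 6.39 points higher at Cas9 in line A and 12.1 in line B. 3' overhangs of 20 nt or more held 16.9% and 16.7% at Cas9 against 4.68% and 4.06% at Jk1. In both lines each of these 3 differences had a p under 1e-300 by Fisher's exact test, and each exceeded the gaps between lines. The call for blunt ends was lost with overhangs of 1 nt called blunt (mean difference 5.90 points, largest adjusted p = 0.363 by the exact test) and with each structure counted once (2.32 points, largest adjusted p = 0.711 by the exact test). Short forms were lower at Cas9, with differences of -7.52 points for 3' overhangs and -13.3 points for 5' overhangs of 1 to 4 nt. All 3' overhangs were 5.71 points higher (largest adjusted p = 2.72e-55 by the exact test), but the difference was -0.294 points among losses of more than 40 nt, where the 2 lines went opposite ways. That call was also lost with both strands past the threshold (0.589 points) and with each structure counted once (8.40 points, largest adjusted p = 0.0527 by the exact test). Far ends held 22.3% and 43.1% of the Jk1 reads of lines A and B, a distance set from a position chosen after seeing the data. A test over lines cannot settle any of these, as 2 lines against 2 in an unpaired exact permutation test cannot go below p = 0.333. Keeping each line paired with itself leaves fewer arrangements still.

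At the recombination substrate, the long 3' overhang was rarer than at Cas9 in both lines, by less than the substrate's own gap between lines on average. 3' overhangs of 20 nt or more held 14.2% and 6.88% of far substrate reads in lines A and B, 2.64 and 9.86 points below Cas9 (largest adjusted p = 2.59e-91 by Fisher's exact test). The mean difference was 6.25 points, and the 2 substrate values lay 7.35 points apart. Those of 5 to 9 nt were lower at the substrate too, by 4.30 points on average (largest adjusted p = 1.6e-129 by the exact test). 5' overhangs of 5 to 9 nt were lower at Cas9, by a difference of -5.92 points (largest adjusted p = 9.04e-262 by the exact test). All 3' overhangs were 4.34 points higher at Cas9 (largest adjusted p = 9.15e-21 by the exact test). That call was lost under 5 alternatives, counting each structure once among them. Here too the substrate's gap between lines, 6.33 points, was wider. Blunt ends and all 5' overhangs did not differ in the same direction in the 2 lines. The loss was not matched here either, with medians of 77 and 86 nt at the substrate in lines A and B.

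Against far ends made by the ZFN in line B, the only line with both, far Cas9 ends were more often blunt, 18.1% against 4.39%. Median loss was 87 nt at Cas9 and 61 nt at the ZFN in that line, and was not matched. At Cas9, 3' overhangs of 20 nt or more were also higher, at 16.7% against 7.82%. All 3' overhangs together were lower, at 57% against 67.9%. Each of these 3 class differences had a p under 1e-300 by Fisher's exact test on pooled reads of 1 line, with no replicate. Counted once per structure, 3' overhangs were instead 16.7 points higher at Cas9. The ZFN table also lists structures with 1 read, which the Cas9 tables do not. All 5' overhangs differed by -2.89 points (adjusted p = 1.82e-62 by the exact test), and were 2.56 points higher without the most abundant far structure of each table.

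**Figure D5:**
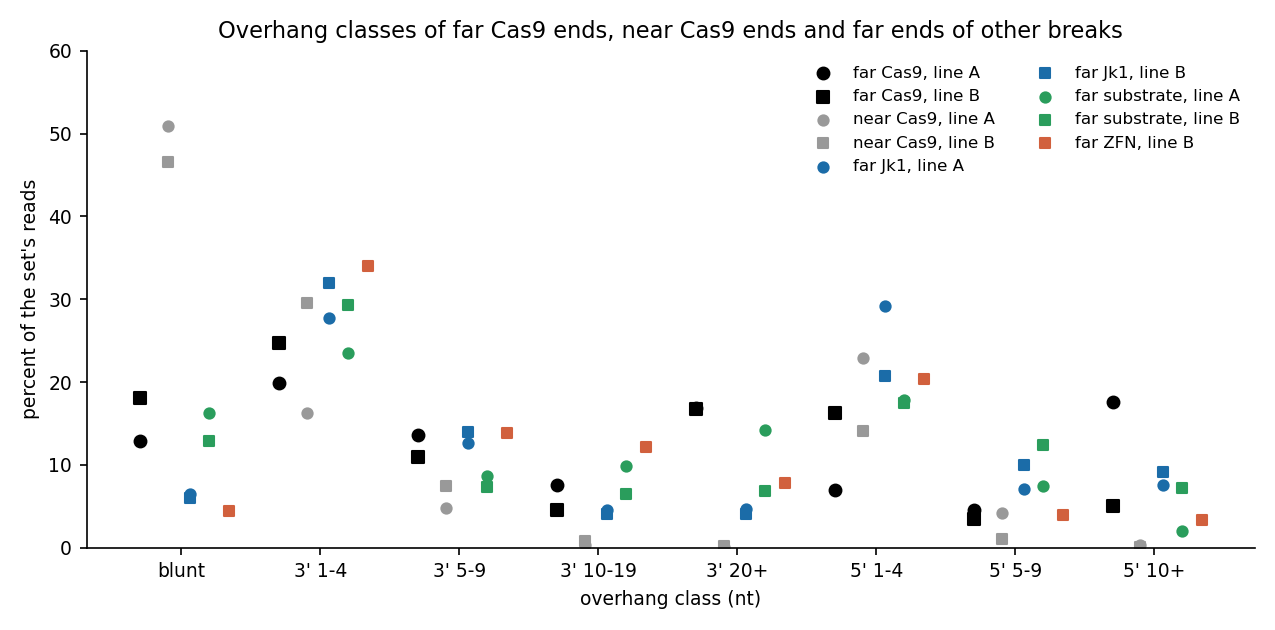
Percent of a set's reads (vertical) in each overhang class (horizontal, nt) for far Cas9 ends, near Cas9 ends and far ends at Jk1, the substrate and the ZFN break, with circles for line A and squares for line B. Far Cas9 ends stand highest for 3' overhangs of 20 nt or more, where both lines overlap at 16.9% and 16.7%, near ends stand highest for blunt, and the 2 lines of far Cas9 ends lie farthest apart in 5' overhangs of 10 nt or more.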

How the data were processed

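Per the labels, strands of genomic DNA were ligated, bisulphite-treated, amplified by PCR and sequenced on an Illumina MiSeq. The authors deposited, for each group, a table of end structures with raw read counts, pooling 3 libraries (KpnI control, 1). The aligner, read filters, genome build and meaning of the columns are, in the sources used here, not given, nor are the guide's sequence and coordinates, so none is printed. Overhang sign was read from the KpnI control, where 99.2% of reads had an overhang of 4 nt. Cut positions (Cas9 37, ZFN 33, RAG 2) were set after seeing the data. The labels and the deposited list of read files give different run numbers for the Cas9 libraries.

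Python 3.11.15 was used with scipy 1.17.1, numpy 2.4.6, matplotlib 3.10.9 and pandas 2.3.3. Overhang classes were compared within each line by two-sided Fisher's exact tests on read counts, adjusted by Benjamini-Hochberg over the classes and lines of a comparison. A difference was called when both lines passed 0.05 on the same side, and set against the gaps between lines of either set. The structures named are the 5 highest in each line, the 10 with the highest smaller share, the leader of each class and the leaders at 20 and 21 nt of loss. The ends, classes and lists were chosen with earlier results of these data known. The scripts were tested on simulated counts.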

Additional observations from a re-analysis of the deposited data

Results flagged for a closer look

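In 7 comparisons line A and line B went opposite ways, and the difference between the lines was not tested. Against near Cas9 ends, far ends had 3' overhangs of 1 to 4 nt 3.62 points higher in line A, while in line B the difference was -4.83 points. For 5' overhangs of 1 to 4 nt the same contrast was -15.9 points in line A and 2.18 in line B. Against far Jk1 ends, 3' overhangs of 5 to 9 nt differed by 1.04 points in line A and -2.99 in line B. 5' overhangs of 10 nt or more differed by 9.97 and -4.13 points. Against far substrate ends, blunt ends differed by -3.42 points in line A and 5.25 in line B, 5' overhangs of 10 nt or more by 15.6 and -2.16, and all 5' overhangs by 1.76 and -12.3.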

How the results depend on the processing

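No paired analysis was possible because each table pools its libraries, whose replicate numbers follow accession order and only name them. Breaks were compared within each line. Of 162 recomputed values, 111 were labelled as kept. These kept their direction and side of the threshold, or moved by less than the spread or counting interval. Numbers of structures in both lines were labelled by a fixed ratio instead, under which 327 against 218 passed as kept. The cause of the other changes was not tested. Counting each structure once gave a far share of 61%, against 21.1% with both strands past the threshold, 36.7% beyond 10 nt and 17.4% beyond 40 nt. Values follow in points. Counted once, the gaps of line B over line A were 1.68 for blunt and 7.63 for 3' ends, those of far over near ends -0.373 (blunt), -0.0332 (3') and 0.406 (5'), those over Jk1 2.32 (blunt) and 8.40 (3'), over the substrate 2.65 (3') and over the ZFN 16.7 (3'). With overhangs of 1 nt called blunt, blunt ends were 5.90 over Jk1. Without the leading structure the lines differed by 1.63 (3'), Cas9 and substrate by 1.64 (blunt) and 4.17 (3'), and Cas9 and ZFN by 2.56 (5'). Leaving out a line gave -3.42 to 5.25 for blunt and -12.3 to 1.76 for 5' ends against the substrate. With the 5'-ending strand alone, far over near 5' ends was 4.39. With both strands, 3' ends were 0.589 over Jk1 and 1.39 over the substrate. Beyond 10 nt, 3' ends were 7.58 higher in line B, 5' ends -1.63 over near ends and 3' ends 8.08 over the substrate. Beyond 40 nt, 5' ends were -0.0274 between lines, 3' ends 13.4 over near ends, -0.294 over Jk1 and 3.52 over the substrate, and blunt ends -1.31 over the substrate.

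Structures in both lines numbered 218, 77 at 10 reads or more, 327 beyond 10 nt and 125 beyond 40 nt. When matched within 1 nt, 340 structures of line A's list had a match in line B, which need not be 1 to 1. The 218 held 67.9% of line A's and 64.7% of line B's far reads. The shares were 43.3% and 53.8% counted once, 25.5% and 35.7% at 10 reads, 67.3% and 66.8% without the leading structure, 69.3% and 64.1% with both strands, 74.6% and 76.7% beyond 10 nt, 63.9% and 54.9% beyond 40 nt, 81.2% and 80.2% within 1 nt, and 68.4% in line A with the 5'-ending strand. Recurrence and gaps between lines have no value with a line left out. Because libraries are pooled, no spread between them can be computed, and structures at 2 to 9 reads are also limited by depth.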
